A study of Canis lupus familiaris with 21 samples.

Results

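LAG3, HAVCR2 and TIGIT are 3 of the 800 probes of an nCounter immuno-oncology panel for the dog, and their values were taken by gene symbol in all 21 libraries of a study of canine cutaneous histiocytoma (CCH). CCH is a skin tumor of Langerhans cell origin, mostly of young dogs, that usually regresses while lymphocytes move into it. Total RNA from formalin-fixed, paraffin-embedded (FFPE) tumors was hybridized to barcoded probes that are counted without amplification. The comparisons ask how immune genes differ between tumor stages within tumor cell-rich tissue (group 2a vs group 1) and within lymphocyte-rich tissue (group 3 vs group 2b). The further contrasts set the lymphocyte-rich libraries against the tumor cell-rich ones.

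Group 1 held 5 libraries of stage 1 tumor tissue, from dogs of 0.5 to 5.0 years, with 1 age not stated. Group 2a held 5 libraries of stage 2 tumor areas chosen under the microscope for tumor cells, from dogs of 0.6 to 3.0 years. Group 2b held 6 libraries of stage 2 areas chosen for lymphocytes, from dogs whose ages in the sample labels ran from 0.3 to 6.0 years. The supplementary sample list of the study gives another age for the youngest of them. Of these 6 libraries, 2 came from single dogs, 3 were pools of 4 dogs and 1 was a pool of 3 dogs. Group 3 held 5 libraries of stage 3 tumors from dogs of 1.5 to 9.0 years, which the sample titles call lymphocyte enriched and the tissue label calls tumor tissue. The dogs were privately owned and of several breeds and both sexes. Punching of chosen areas is described for stage 2 only, so tumor stage and tissue preparation cannot be told apart in group 2a vs group 1 and in group 3 vs group 2b.

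LAG3, HAVCR2 (the gene of TIM-3) and TIGIT encode inhibitory receptors on the cell surface of lymphocytes. LAG3 is a relative of CD4 that binds MHC class II on antigen-presenting cells, and its gene lies next to CD4 on the dog assembly UU_Cfam_GSD_1.0. TIM-3 is carried by activated T cells and also by dendritic cells and macrophages, and its ligands include galectin-9, CEACAM1 and the nuclear protein HMGB1. TIGIT is found on T cells and natural killer (NK) cells, and it competes with the activating receptor CD226 for CD155, the product of PVR. In human and mouse tumors all of them are known as receptors of T cells under lasting stimulation. These roles were described mainly in human and mouse.

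Totals of recovered counts per library spanned 484696 to 823763 (group 1), 756981 to 1128309 (group 2a), 982552 to 1315188 (group 2b) and 945399 to 1253083 (group 3). The share of RNA fragments over 200 nucleotides (DV200) was lower in group 1, at 64.5 to 71.2%, than in group 2b, at 72.5 to 76.9%. It was 70.5 to 76.6% in group 2a and 71.2 to 75.8% in group 3. The supplementary sample list of the study also gives an RNA quality number, lower in every group 2b library than in every group 2a library. That number and the tissue area therefore cannot be told apart in group 2b vs group 2a. The tissue labels were checked against marker lists. The summed normalized counts of 10 T cell markers were 460.2 to 9322 in group 1, 2380 to 6697 in group 2a, 11273 to 19801 in group 2b and 11961 to 20506 in group 3, so that the lymphocyte-rich libraries all lay above the tumor cell-rich ones. CD3E and CD8A had their lowest values of all libraries in group 1 replicate 1, at 42.3 and 34.9. CD207, which encodes langerin and defines Langerhans cells, was low throughout, at 18.0 to 38.6 normalized counts in group 1, 13.6 to 24.6 in group 2a, 11.6 to 21 in group 2b and 7.56 to 22.3 in group 3. Of 11 Langerhans and dendritic cell markers, limma at an adjusted p of at most 0.05 called 3 higher (CD1B, XCR1 and IRF8) and 2 lower (FLT3 and CCR6) in group 2b vs group 2a, where it called 32.2% of all 800 probes higher and 6.5% lower. With the library medians set equal, 2 of the 11 were called higher and 4 lower. Their median log2 difference was -0.02, against 0.23 over all probes. In such bulk tissue fewer cells of a type and less RNA per cell cannot be told apart.

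LAG3 was low in tumor cell-rich tissue and about 3-fold higher in lymphocyte-rich tissue of both stages. In group 1 its normalized counts were 43.4, 66.2, 159.7, 145 and 64.4 in replicates 1 to 5. In group 2a they were 67.2, 93.8, 84.5, 69.1 and 185. The high libraries were group 1 replicates 3 and 4 and group 2a replicate 5, and these were also the ones with the most T cell marker signal in their groups. In group 2b the lowest library had 213, the median was 302 and the highest library had 409. In group 3 the values were 288, 390.4, 223, 282 and 380.2. Every library of groups 2b and 3 lay above every library of groups 1 and 2a, while groups 1 and 2a overlapped, as did groups 2b and 3. The means were 95.7 ± 52.7 (SD, n = 5) in group 1, 100.02 ± 49.0 (SD, n = 5) in group 2a, 308 ± 68.3 (SD, n = 6) in group 2b and 313 ± 70.9 (SD, n = 5) in group 3.

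TIGIT followed the same division, with its highest values in group 3 and its widest spread on the log2 scale in group 1. Group 1 gave 20.1, 120.4, 305, 232 and 75.8 normalized counts. The lowest value, in replicate 1, rested on 19 recovered counts, in the library with the least T cell marker signal of all 21. Group 2a gave 80.2, 87.2, 77.4, 91.7 and 219. Its replicate 5 stood apart from the other 4 libraries, which lay within 77.4 to 91.7. In group 2b the lowest value was 287, the median 374 and the highest 476. Group 3 gave 879, 480.0, 399, 487 and 588. All 5 libraries of group 3 and all 6 of group 2b were above those of group 2a, and 4 of the 5 group 3 libraries were above every group 2b library. Against group 1, all of group 3 was higher, and 5 of 6 group 2b libraries were above the highest group 1 library. The means were 151 ± 116 (SD, n = 5), 111 ± 60.6 (SD, n = 5), 371 ± 65.1 (SD, n = 6) and 567 ± 187 (SD, n = 5) in groups 1, 2a, 2b and 3.

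HAVCR2 ran the other way, with its higher means in tumor cell-rich tissue. Group 1 gave 531, 344, 934, 988 and 860.2 normalized counts, and group 2a gave 635, 869, 309.7, 765 and 578. Each of these groups held 1 low library, replicate 2 in group 1 and replicate 3 in group 2a. These were also the libraries with the lowest value of their groups for FLT3, a growth factor receptor of dendritic cells, at 962 and 849.6. FLT3 is 1 of 11 Langerhans and dendritic cell markers, whose summed normalized counts were lowest in the same libraries (2578 and 3393). Their mean log2 value was lowest elsewhere. It was 6.69 in group 1 replicate 1 (6.74 in replicate 2) and 6.55 in group 2a replicate 5 (6.73 in replicate 3). In group 2b the lowest value was 309, the median 405 and the highest 435. Group 3 gave 478, 511, 538, 462 and 524, a narrow range that lay wholly above group 2b. How many other probes of the panel separated groups in this way was not counted, for HAVCR2 or for LAG3 and TIGIT. Whether such a separation is unusual on this panel therefore cannot be told. Groups 1 and 2a overlapped with both lymphocyte-rich groups. The means were 732 ± 280.1 (SD, n = 5) in group 1, 632 ± 213 (SD, n = 5) in group 2a, 388 ± 49.4 (SD, n = 6) in group 2b and 502 ± 31.9 (SD, n = 5) in group 3. Probes differ in efficiency, so the levels of the 3 genes were not set against each other.

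**Figure D1:**
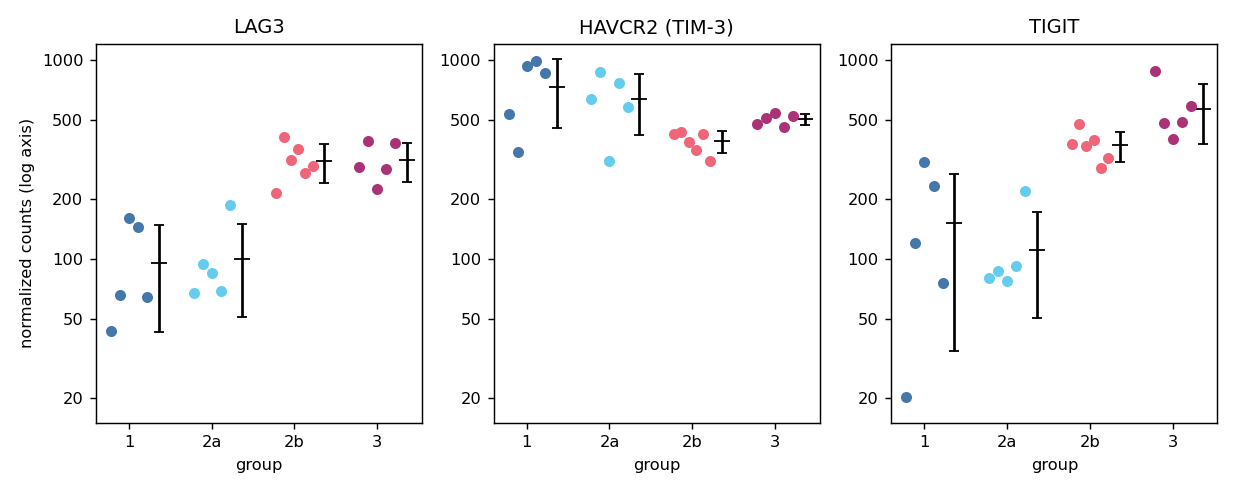
Normalized counts (log axis) of LAG3, HAVCR2 and TIGIT in each library (points, in replicate order) by group, with the group mean and SD beside them (black). LAG3 stayed between 43.4 and 185 in groups 1 and 2a and between 213 and 409 in groups 2b and 3, TIGIT reached 879 in group 3, and HAVCR2 had its highest values, up to 988, in group 1.

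Between the tumor cell-rich groups no member was called. The test was limma on log2(normalized count + 1) over all 21 libraries, with Benjamini-Hochberg adjustment over the 800 probes and a call at an adjusted p of at most 0.05. In group 2a vs group 1, LAG3 differed by 0.13 ± 0.33 (SE) on the log2 scale (95% interval -0.56 to 0.82, adjusted p = 0.886). HAVCR2 differed by -0.19 ± 0.27 (interval -0.75 to 0.38, adjusted p = 0.780). TIGIT differed by -0.06 ± 0.50 (interval -1.10 to 0.99, adjusted p = 0.970). Thus 0 of 3 members passed, where 0.125% of all probes did, the single one being OAZ1 (-0.83), named here after its values were seen. The paper describes OAZ1 as a housekeeper gene and used it as a control for RNA detection. Under equal medians and under quantile normalization 0 probes were called in this contrast. TIGIT had the widest interval. At an unadjusted p under 0.05, 114 probes and none of the members passed.

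Between the lymphocyte-rich groups no member was called either. In group 3 vs group 2b, LAG3 differed by 0.02 ± 0.32 on the log2 scale (interval -0.64 to 0.68, adjusted p = 0.999 by limma). HAVCR2 differed by 0.38 ± 0.26 (interval -0.16 to 0.92, adjusted p = 0.981), although its group 3 and group 2b libraries did not overlap. The share of all probes without overlap in this contrast was not determined. TIGIT differed by 0.57 ± 0.48 (interval -0.43 to 1.57, adjusted p = 0.981), which is 1.49-fold in the direction of group 3. Of all probes 0.125% were called, again a single one, the B cell complement receptor CR2, named after its values were seen. At an unadjusted p under 0.05, 50 probes and none of the members passed. The spread used by the test came from all 4 groups, and HAVCR2 varied more in groups 1 and 2a than in the lymphocyte-rich groups. With only groups 2b and 3 in the fit, the adjusted p was 0.273 for HAVCR2 and 0.284 for TIGIT.

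Between lymphocyte-rich and tumor cell-rich areas of stage 2 tumors, LAG3 and TIGIT rose. In group 2b vs group 2a LAG3 was 1.69 ± 0.32 higher on the log2 scale, or 3.23-fold (interval 1.03 to 2.36, adjusted p = 3.29e-04 by limma), and it was above every group 2a library in 6 of 6 libraries. TIGIT was 1.84 ± 0.48 higher, or 3.57-fold (interval 0.84 to 2.84, adjusted p = 0.00482), again in 6 of 6 libraries. Of all 800 probes 32.2% were called higher in this contrast and 6.5% lower, so a call in the direction of group 2b was common on this panel. The share of all probes with every group 2b library above every group 2a library was not determined. HAVCR2 differed by -0.63 ± 0.26 (interval -1.17 to -0.09) and missed the threshold, at an adjusted p of 0.0615.

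The scaling of the libraries bore on these sizes. The median log2 difference over all probes was 0.23 as deposited, -0.48 after scaling to equal medians, -0.18 after quantile normalization and -0.20 with TMM factors. The share of called probes that were higher in group 2b fell from 83.2% as deposited to 26.6%, 42.2% and 43.3% in that order. LAG3 remained higher and called at 0.98 (equal medians), 0.98 (quantile) and 1.21 (TMM, edgeR). TIGIT remained so at 1.12, 1.14 and 1.33. HAVCR2 passed the threshold as lower at -1.34, -1.21 and -1.13, with limma or edgeR adjusted p values of 8.15e-04, 0.00234 and 0.00261. It also passed on the recovered counts with the deposited scaling, at -0.70 by edgeR (adjusted p = 0.0306) and by DESeq2 (adjusted p = 0.0177). Leaving out the pooled libraries, which left 2 libraries in group 2b, TIGIT was 2.05 higher and lost its call (adjusted p = 0.0721).

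The contrasts across stages gave the same directions. In group 3 vs group 1, LAG3 was 1.85 ± 0.33 higher on the log2 scale (adjusted p = 3.08e-04) and TIGIT 2.35 ± 0.50 higher (adjusted p = 0.00107), where 29.4% of probes were called higher. Under equal medians these were 1.19 and 1.69, both still called, and the probes called higher fell from 235 to 115 of 800. Without group 1 replicate 1 the TIGIT difference was 1.77. HAVCR2 differed by -0.44 ± 0.27 (adjusted p = 0.213), but it was called lower under equal medians (-1.10), quantile normalization (-0.94) and TMM (-0.79), and without group 1 replicate 2 (-0.68). In group 3 vs group 2a, LAG3 was 1.71 ± 0.33 higher (adjusted p = 6.56e-04) and TIGIT 2.41 ± 0.50 higher (adjusted p = 0.00125), where 29.9% of probes were called higher, and HAVCR2 differed by -0.25 ± 0.27 (adjusted p = 0.503), called lower under equal medians (-0.94) and TMM (-0.73). LAG3 and TIGIT stayed called there under equal medians, at 1.03 and 1.72. Group 2b vs group 1 was the one contrast of the 6 that called all 3 genes. There LAG3 was 1.83 ± 0.32 higher (adjusted p = 1.38e-04) and TIGIT 1.78 ± 0.48 higher (adjusted p = 0.00508), with 33.1% of probes called higher, and HAVCR2 fell by 0.82 ± 0.26 (adjusted p = 0.0145), with 14% of probes called lower. Under equal medians LAG3 was 1.14 and TIGIT 1.09 higher, both still called, and edgeR with TMM factors gave TIGIT as 1.05 (adjusted p = 0.0484). Apart from that edgeR value, the adjusted p values of these contrasts are from limma. Without group 1 replicate 1 the TIGIT difference in this contrast was 1.19, and with DV200 as a covariate neither HAVCR2 (-0.55, adjusted p = 0.305) nor TIGIT (1.58, adjusted p = 0.118) kept its call. The same held without the pooled libraries (-0.67, adjusted p = 0.251, and 1.99, adjusted p = 0.0674). The contrasts share libraries, so they are not separate evidence.

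**Figure D2:**
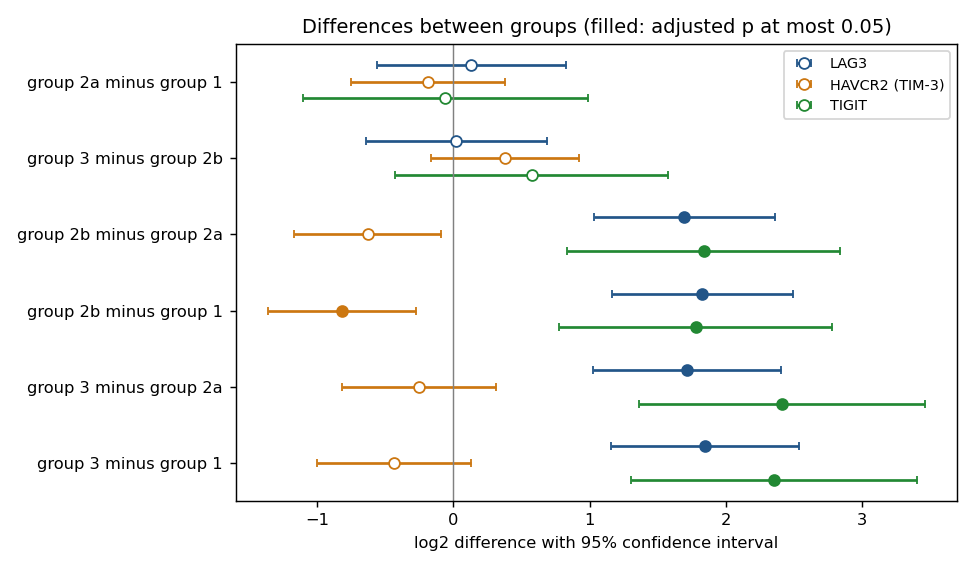
Log2 differences between groups with 95% confidence intervals for LAG3, HAVCR2 and TIGIT in the 6 contrasts, filled where the adjusted p was at most 0.05. The first contrasts, within tumor cell-rich and within lymphocyte-rich tissue, hold only open points, whereas LAG3 (1.69 to 1.85) and TIGIT (1.78 to 2.41) were called in the other 4 and HAVCR2 (-0.82) in group 2b vs group 1 alone.

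From low to high, the mean levels of LAG3 ran group 1, group 2a, group 2b, group 3, and those of TIGIT ran group 2a, group 1, group 2b, group 3. In both orders only the step between the tumor cell-rich and the lymphocyte-rich pair was called. For HAVCR2 the order was group 2b, group 3, group 2a, group 1, and limma called no neighbors in it apart, although the libraries of groups 2b and 3 did not overlap.

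Differences between the members do not depend on how a library was scaled, since a scaling factor drops out of the ratio of 2 genes in one library apart from the effect of the added 1. For 3 pairs in 3 contrasts, 9 exact two-sided permutation tests over libraries were run, with p values adjusted over the 9. The log2 ratio of LAG3 to HAVCR2 was -2.67 ± 0.85 (SD) in group 2a and -0.35 ± 0.39 in group 2b, a difference of 2.32 (exact permutation p = 0.00433, adjusted p = 0.0195). The log2 ratio of HAVCR2 to TIGIT was 2.54 ± 0.81 in group 2a and 0.07 ± 0.27 in group 2b, a difference of -2.47 (exact permutation p = 0.00433, adjusted p = 0.0195). For both, 0.00433 is the smallest p this design can give, and the libraries of the groups did not overlap. LAG3 and TIGIT rose by similar amounts, with a difference of -0.14 in their log2 ratio (exact permutation p = 0.433, adjusted p = 0.643), which does not show that they moved alike. Between group 3 and group 2b the ratio of LAG3 to TIGIT differed by -0.55 (exact permutation p = 0.0390, adjusted p = 0.117), from -0.28 ± 0.28 in group 2b to -0.83 ± 0.48 in group 3, and it missed the threshold after adjustment. None of the 3 ratios was called in group 2a vs group 1.

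T cell marker signal moved with LAG3 and TIGIT. All 10 T cell markers rose in group 2b vs group 2a, with a median log2 difference of 2.36 against 0.23 over all probes. Set against the mean log2 value of these markers in the same library, LAG3 was 0.71 ± 0.41 (SE) lower in group 2b than in group 2a (adjusted p = 0.114) and TIGIT 0.57 ± 0.36 lower (adjusted p = 0.146), neither of them called by limma. On this scale 80% of the 790 remaining probes were called lower. HAVCR2 was 3.03 ± 0.53 lower (adjusted p = 1.28e-04), below the median of all probes at -2.18. The per-library values show the same split. The log2 ratio of LAG3 to the markers was -1.41 to -0.55 in group 2a and -2.0 to -1.31 in group 2b, so that the groups overlapped, while that of HAVCR2 was 0.59 to 2.65 in group 2a and -1.88 to -0.84 in group 2b, with no overlap. The share of all probes without overlap on this scale was not determined. TIGIT relative to the markers lay at -1.11 to -0.65 in group 2a and at -1.76 to -0.99 in group 2b. In group 3 it was -1.45 to -0.47, and its difference from group 2b was 0.51 ± 0.36 (adjusted p = 0.999). Against group 1, limma called LAG3 lower on this scale in group 2b (-0.93, adjusted p = 0.0387) and group 3 (-0.97, adjusted p = 0.0387). TIGIT was called lower in group 2b (-0.98, adjusted p = 0.0140) but not in group 3 (-0.46, adjusted p = 0.245). Of all remaining probes 84.7% and 87.1% were called lower in these contrasts. In group 3 vs group 2a neither gene was called. How far T cell content accounts for the differences was not tested.

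**Figure D3:**
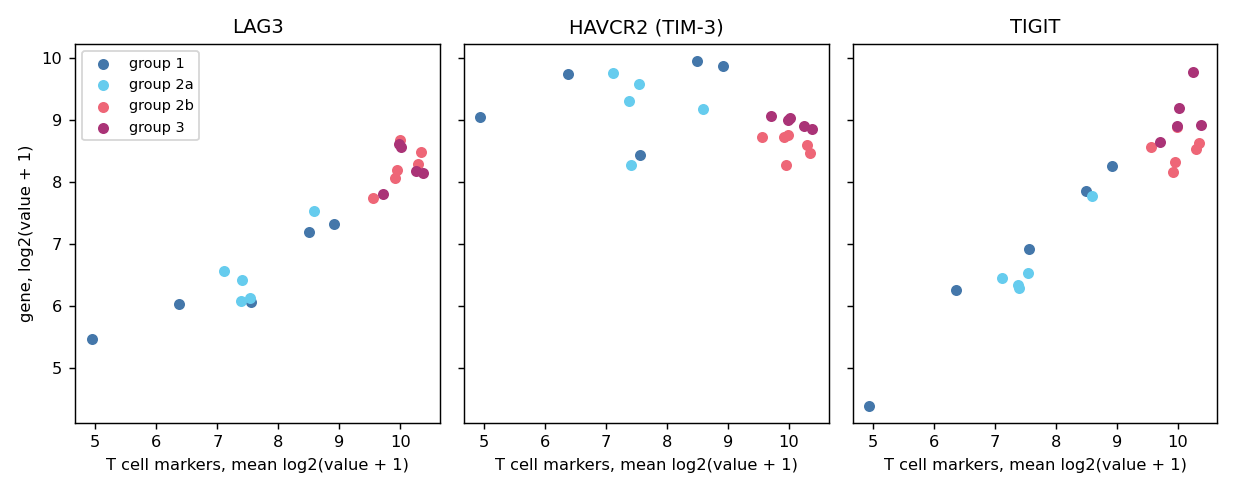
Log2(normalized count + 1) of each gene against the mean of 10 T cell markers in the same library (21 points per panel, colored by group). TIGIT and LAG3 climbed with the markers from group 1 replicate 1, at 4.94 on the marker axis, to the lymphocyte-rich libraries at 9.56 to 10.38, whereas HAVCR2 did not.

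HAVCR2 is also a gene of macrophages, so the same was done with 11 macrophage and monocyte markers. Their summed normalized counts were 3463 to 11906 in group 1, 3922 to 10196 in group 2a, 6908 to 14249 in group 2b and 8545 to 15701 in group 3, and 5 of the 11 were called higher in group 2b than in group 2a, where 32.2% of all probes were. Under equal medians 0 of the 11 were called higher and 2 lower, and under quantile normalization 1 was called higher. As deposited, 6 of the 11 were not called, and the median log2 difference of the list was 0.54, against 0.23 over all probes. CD68, a lysosomal protein of macrophages and only 1 of the 11, was 402 to 1630 in group 2a and 1187 to 2320 in group 2b. Against the mean of this list HAVCR2 was 1.50 ± 0.46 lower in group 2b than in group 2a (adjusted p = 0.0202 by limma), where 24.3% of 789 probes were called lower. Without group 2a replicate 2 the difference was -1.19 (adjusted p = 0.0813), and without group 2a replicate 4 it was -1.34 (adjusted p = 0.0558). LAG3 was 0.82 ± 0.42 higher (adjusted p = 0.112) and TIGIT 0.96 ± 0.50 higher (adjusted p = 0.117) on this scale. No member was called on either marker scale in group 2a vs group 1 or in group 3 vs group 2b. On both marker scales limma called 0 probes in these contrasts, while at an unadjusted p under 0.05 there were 30 and 17 probes relative to the T cell markers and 34 and 24 relative to the macrophage and monocyte markers.

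**Figure D4:**
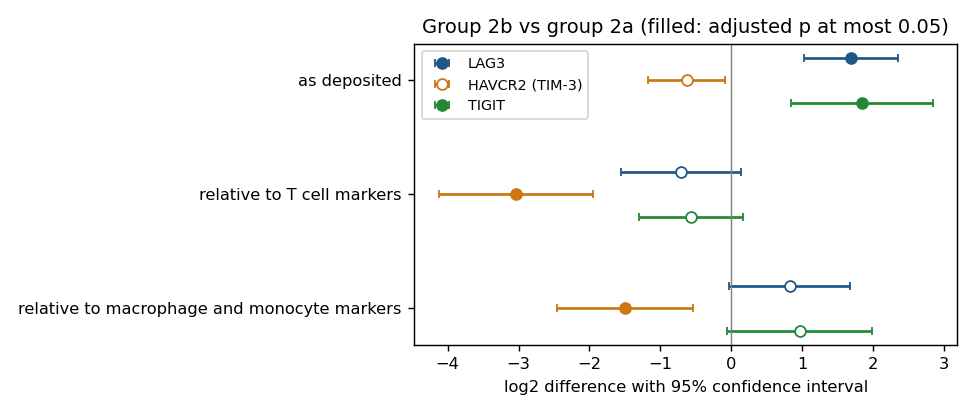
Log2 differences of group 2b minus group 2a with 95% confidence intervals, as deposited and relative to T cell or macrophage and monocyte markers, filled where the adjusted p was at most 0.05. HAVCR2 moved from -0.63 to -3.03 and -1.50, while LAG3 (1.69) and TIGIT (1.84) came to lie below 0 against the T cell markers (-0.71 and -0.57).

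The panel held 32 probes, in 7 lists, of genes linked to these receptors. Most of them are not binding partners but other inhibitory receptors (9) and genes linked to T cell exhaustion (11). Of the 32, 17 were called higher and 2 lower in group 2b vs group 2a, where 32.2% of all probes were called higher and 6.5% lower. Under equal medians 7 of the 32 were called higher and 9 lower. In group 2a vs group 1 and in group 3 vs group 2b none of the 32 was called by limma, with 4 and 1 of them at an unadjusted p under 0.05. Among 5 genes for ligands of LAG3, 1 was called higher. This was DLA-DQA1, an MHC class II alpha chain, at 16413 ± 6065 (SD, n = 5) in group 2a and 32789 ± 8341 (SD, n = 6) in group 2b (1.04 ± 0.38, adjusted p = 0.0379), a call that was lost under equal medians, quantile normalization and TMM. The MHC class II alpha chain DLA-DRA was abundant in every library, at 28196 to 71815 normalized counts, and its difference was 0.23 ± 0.20 (adjusted p = 0.417), with the sign turned under equal medians (-0.49) and TMM (-0.20). The beta chain DLA-DQB1 was at 29.6 in 1 group 1 library and at 13.3 in 1 group 3 library, against 10248 or more in every library of groups 2a and 2b. The lectin galectin-3 gene LGALS3 differed by -0.52 ± 0.36 (adjusted p = 0.279), and under the 3 other scalings it was called lower (-1.24, -0.91 and -1.08 for equal medians, quantile and TMM).

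For TIM-3, the adhesion molecule CEACAM1 rose by 1.00 ± 0.29 on the log2 scale in group 2b vs group 2a (adjusted p = 0.0109 by limma), from 789.6 ± 297 (SD, n = 5) to 1524 ± 479.6 (SD, n = 6) normalized counts, while HAVCR2 itself did not rise. This call too was lost under the other scalings. HMGB1 differed by -0.25 ± 0.21 (adjusted p = 0.392), and it was called lower under each of the other scalings (-0.97, -0.62 and -0.66 in the same order). For TIGIT, the ligand gene PVR differed by -0.35 ± 0.24 (adjusted p = 0.271) and lay at 93.4 to 264 normalized counts over groups 2a and 2b, and it too was called lower under each of the other scalings (-1.07, -1.08 and -0.76). CD96, a receptor that shares this ligand, rose by 1.72 ± 0.46 (adjusted p = 0.00611), from 159 ± 64.1 to 510.5 ± 163, a call that was lost under quantile normalization (1.09).

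Of 9 other inhibitory receptors, 5 rose and 1 fell in group 2b vs group 2a (32.2% and 6.5% of all probes), with a median log2 difference of 1.15, but under equal medians only 2 rose and 2 fell. CD5, which dampens T cell receptor signals, rose by 2.40 ± 0.39 (adjusted p = 9.47e-05 by limma) and the collagen receptor LAIR1 by 1.91 ± 0.28 (adjusted p = 3.89e-05), and both stayed called under the 3 other scalings. PDCD1, the gene of PD-1, rose by 1.15 ± 0.41 (adjusted p = 0.0298) and CTLA4 by 1.39 ± 0.41 (adjusted p = 0.0109), both of which lost their call under the 3 scalings. CD160 was the fifth that rose, and of the other scalings only TMM kept its call. KLRG1, a cadherin receptor of effector T cells and NK cells, fell by 1.76 ± 0.33 (adjusted p = 3.58e-04), from 1332 ± 590.3 to 375 ± 85.2 normalized counts, and so moved against LAG3 and TIGIT.

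Of 11 genes linked to T cell exhaustion, 7 rose and 1 fell (again against 32.2% and 6.5% of all probes), with a median of 0.96, against 3 that rose and 3 that fell under equal medians. The T-box factor EOMES rose by 3.13 ± 0.49 (adjusted p = 7.98e-05 by limma) and TCF7, a factor of naive and memory-like T cells, by 2.81 ± 0.49 (adjusted p = 1.94e-04). TOX, a transcription factor of exhausted T cells, differed by -0.08 ± 0.23 (adjusted p = 0.829), with mean values of 380.4 ± 143 (group 2a) and 344 ± 30.5 (group 2b), and it was called lower under equal medians (-0.79) and quantile normalization (-0.72). ENTPD1, the gene of the ectoenzyme CD39, fell by 1.40 ± 0.28 (adjusted p = 0.0005). Of 3 kinases of T cell signaling, LCK rose by 2.11 ± 0.53 (adjusted p = 0.00391) and FYN by 1.10 ± 0.23 (adjusted p = 9.22e-04, not called under equal medians, at 0.38). ZAP70 differed by 0.12 ± 0.39 (adjusted p = 0.849), with the sign turned under equal medians (-0.60) and TMM (-0.14). Its values over groups 2a and 2b were only 2.89 to 20.4 normalized counts, near the floor of the panel. They therefore say little about whether ZAP70 changed.

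**Figure D5:**
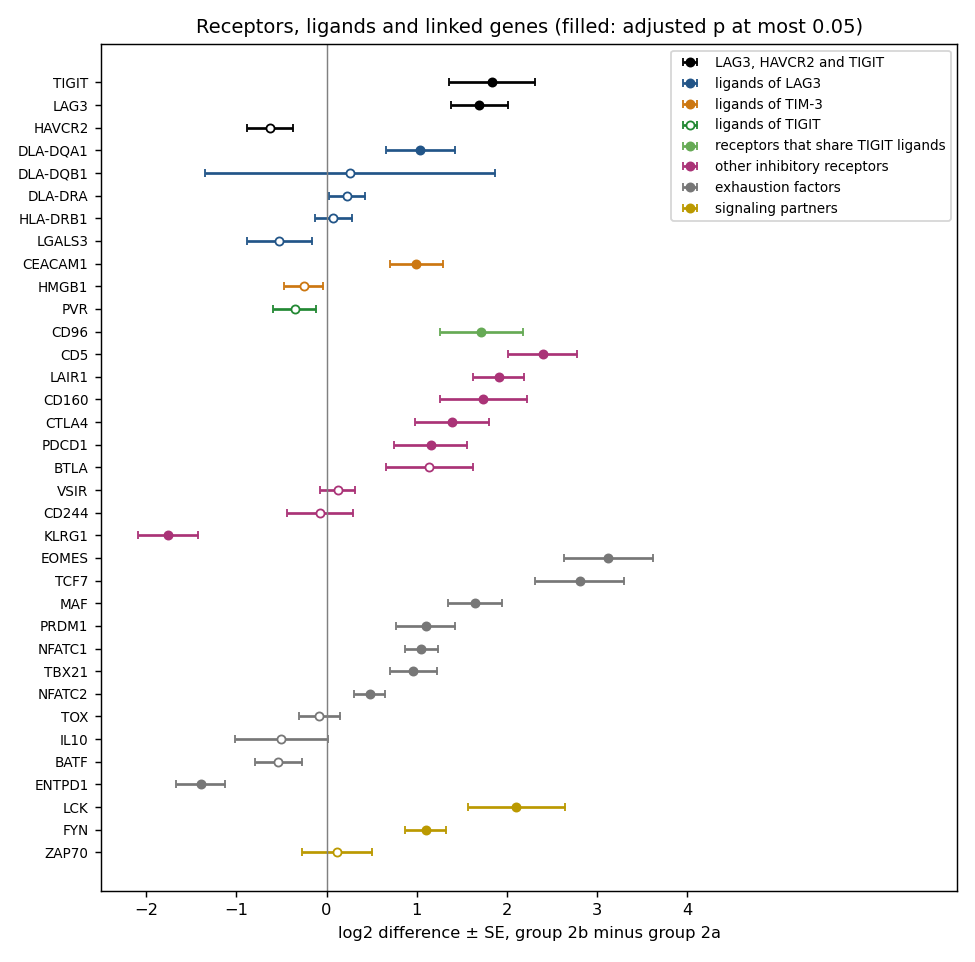
Log2 differences of group 2b minus group 2a with their SE for LAG3, HAVCR2, TIGIT and the 32 linked probes, colored by list and filled where the adjusted p was at most 0.05. TIGIT (1.84), CD96 (1.72) and LAG3 (1.69) lay together, EOMES (3.13) was furthest to the right, and KLRG1 (-1.76) and ENTPD1 (-1.40) were the called genes on the left.

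The genes whose values went most alike with each member were found by Pearson correlation of log2(normalized count + 1) after the group means were subtracted, over the 21 libraries, which describes likeness between libraries of one group and carries no test. For TIGIT they were CD3E (r = 0.95), CD3D (0.95), CCL5 (0.94), TRBC (0.93) and LCK (0.93), that is, 3 parts of the T cell receptor complex, a chemokine and a T cell kinase. For LAG3 they were the costimulator ICOS (0.92), the interleukin 2 receptor chain IL2RB (0.91), the T-box factor TBX21 (0.87), the granzyme GZMK (0.86) and LCK (0.85). For HAVCR2 they were FLT3 (0.74), TRAF6 (0.70), MYC (0.68), IKBKB (0.68) and BRAF (0.67). None of these was on the T cell marker list, and neither was any of those for LAG3. LAG3 and TIGIT went together at r = 0.82, whereas HAVCR2 reached 0.31 with both. The median over all other probes was 0.09 for LAG3, 0.02 for HAVCR2 and 0.12 for TIGIT. Over the 10 T cell markers the median was 0.90 for TIGIT, 0.77 for LAG3 and 0.24 for HAVCR2, and over the macrophage and monocyte markers it was -0.29 for HAVCR2. All these values share the libraries and their scaling. On the log2 scale the SD of TIGIT was 1.53 in group 1. It was 0.62, 0.25 and 0.43 in groups 2a, 2b and 3, so group 1 weighed most in the correlations of TIGIT. How far they rest on group 1 replicate 1 was not tested.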

How the data were processed

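RNA was extracted from 21 FFPE libraries of 4 groups with the PureLink FFPE kit and hybridized to 780 probes plus 20 housekeeper probes. The authors normalized the counts in nSolver 4.0 and deposited them as normalized signal values per probe. R 3.3.2 is named in the submitters' processing notes. The probe sequences and the genome build behind the probes were not given in the sources used here. Division by a per-library step of 0.909 to 1.89 gave whole counts for 100.0% of values (tolerance 0.01), after 18 values in 4 libraries had been raised to 1. Groups, replicate numbers and DV200 followed the labels, and the supplementary sample list of the study gives another DV200 for group 3 replicate 5. Tests were run with limma 3.58.1 in R 4.3.3 on log2(value + 1), with a variance trend, 4 group means and 6 contrasts. edgeR 4.0.16 and DESeq2 1.42.0 on the recovered counts were alternatives, and at an adjusted p of at most 0.05 edgeR called 289 and DESeq2 called 329 probes in group 2b vs group 2a. Member ratios were tested by exact permutation. The members, gene lists and naming rule (members in every library, linked genes by list, the 5 most alike probes) were chosen with earlier results of these data known. The script was tested on simulated data. Symbols matched the annotation for 773 probes, gene IDs for 4 more, and 23 stayed unmatched. No 2 replicates agreed within sampling noise (chi-square per probe at least 40.6). The labels name a dog or a pool per library, so p values measure the spread between these.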

Additional observations from a re-analysis of the deposited data

Results flagged for a closer look

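TIGIT in group 2a replicate 5 had 219.07 normalized counts, and its gap to the next library took up 0.838 of the group's range on the log2 scale, above the critical value of 0.71 of Dixon's test for 5 samples. The same library had the most LAG3 (185) and the most T cell marker signal (6697 summed normalized counts) of group 2a. Chance flags about 1 in 20 groups, and 12 sets of a gene in a group were examined.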

How the results depend on the processing

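LAG3 in group 2b vs group 2a kept its direction and call under all 12 alternatives and with each library left out (1.58 to 1.94). HAVCR2 there passed the threshold under equal medians (-1.34), quantile normalization (-1.21), edgeR (-0.70), DESeq2 (-0.70) and TMM (-1.13), and ranged from -0.86 to -0.49 with a library left out, passing without group 1 replicate 2 (-0.63, adjusted p = 0.0275 by limma) or group 2a replicate 3 (-0.86). TIGIT there was 2.05 without the pooled libraries and no longer called.

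Without the pooled libraries the other calls lost in this contrast were HAVCR2 relative to T cell markers (-2.65), relative to macrophage and monocyte markers (-1.27), LAG3 over HAVCR2 (2.14) and HAVCR2 over TIGIT (-2.53), the last ratios in a design too small to pass, and 123 probes were called instead of 310. HAVCR2 relative to T cell markers in group 3 vs group 2b turned to -0.0668. HAVCR2 in group 2a vs group 1 turned to 0.0402 with DV200 as a covariate, and TIGIT to 0.0718 under quantile normalization.

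With a library left out, uncalled differences turned sign within these ranges. In group 2a vs group 1 they were -0.12 to 0.36 for LAG3, -0.43 to 0.0480 for HAVCR2, -0.64 to 0.32 for TIGIT, -0.41 to 0.12 for LAG3 relative to T cell markers, -0.18 to 0.53, -0.66 to 0.15 and -0.54 to 0.42 for LAG3, HAVCR2 and TIGIT relative to macrophage and monocyte markers, and -0.42 to 0.37 for HAVCR2 over TIGIT. In group 3 vs group 2b they were -0.0801 to 0.13 for LAG3 and -0.15 to 0.0689 for LAG3 relative to T cell markers. LAG3 relative to T cell markers in group 2b vs group 2a (-0.80 to -0.58) passed without group 1 replicate 1. HAVCR2 relative to macrophage and monocyte markers ran from -1.81 to -1.19. LAG3 over TIGIT in group 3 vs group 2b ran from -0.69 to -0.36 and passed without group 2b replicate 1.

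Replicate numbers did not pair the libraries (correlations of same-numbered libraries from -0.36 to 0.20). With the replicate block, HAVCR2 relative to macrophage and monocyte markers was -1.36 and lost its call (adjusted p = 0.0609 by limma), as did HAVCR2 in group 2b vs group 1 (-0.75, adjusted p = 0.0556). Probes called in group 2a vs group 1 numbered 1, but 20 by DESeq2, 7 by edgeR with TMM, 0 under equal medians, quantile normalization, no variance trend, edgeR, the replicate block, DV200 and without pools, and 0 to 12 with a library left out. In group 3 vs group 2b they numbered 1, but 3 with a pseudocount of 10, 0 by the other alternatives that moved it, and 0 to 18 with a library left out. The causes were not tested. The lowest recovered count of a member in a library was 19, for TIGIT in group 1 replicate 1.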
